A study of Mus musculus with 2 samples.

Results

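The genes described here build the membrane and membrane skeleton of the red cell or act late in erythroid maturation. They were taken as a list of 33 gene symbols, sorted by role into band 3 and its ankyrin attachment, the spectrin skeleton, blood group and other surface proteins, enzymes, sphingosine-1-phosphate supply and maturation factors. Of these, 31 had a row of their own in the expression table of 23284 genes. In at least 1 library, 26 reached 1 FPKM (fragments per kilobase of transcript, scaled for sequencing depth). Sptb and Ahsp had no row under those symbols. Spnb1, the older symbol of Sptb (erythroid beta spectrin), had one and is given beside the skeleton genes.

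The series asked how loss of ESAM (endothelial cell-selective adhesion molecule, a surface protein of hematopoietic stem cells and endothelial cells) alters gene expression in fetal stem cells. RNA was sequenced from LSK CD48- cells (lineage-negative, Sca-1+, c-Kit+, CD48-negative) from mouse fetal liver at embryonic day E14.5, with 1 wild-type (WT) library and 1 library from fetuses without ESAM (ESAM-null). The null allele is a conventional deletion present in every cell of the fetus, and the sources used here do not give the number of fetuses or cells pooled. The treatment label describes plating of the sorted cells in methylcellulose medium, while the study's text uses that culture for its colony assays, and whether fresh or plated cells gave the RNA cannot be told apart here. With 1 library per genotype there was no replicate check and no test, so a difference below is one between these libraries.

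The membrane of a red cell is held by a mesh of spectrin tetramers beneath it. Ankyrin and protein 4.2 tie this mesh to band 3, the chloride-bicarbonate exchanger, and at the junctions of the mesh protein 4.1, adducin, dematin, tropomodulin and short actin filaments tie it to glycophorin C. Most of these genes are switched on as erythroblasts mature under GATA1 and KLF1, while members such as Bsg, Add1 and Gypc are used by many cell types.

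Esam, the deleted gene, stood at 118 FPKM in the WT library and 12.1 in the ESAM-null library, a 9.69-fold lower level. The depth was about 9410000 reads in WT and 11530000 reads in ESAM-null, estimated from the size of the smallest values, and 14305 and 13039 genes were above 0. All 10 markers of hematopoietic stem and progenitor cells were present and within 2-fold, with summed levels of 952 and 877 FPKM, and Cd48 was listed at 16.6 and 22 FPKM although the gate removes CD48-positive cells. Among 12066 genes at 1 FPKM or more in a library, 12.8% had an ESAM-null level lower by 2-fold or more and 7.42% one higher by 2-fold or more, with a median log2 ratio of 0.00. Lower genes made up 63.2% of all genes past 2-fold as deposited, and 78.1% after each library was rescaled to the same FPKM total.

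Promoter sequence was examined because many of these genes are known GATA1 and KLF1 targets. RefSeq windows on GRCm38.p6, from 250 bases before to 50 bases after a start site, were matched to 23 of the 31 members (34 windows). The 6-letter GATA motif AGATAA, searched on both strands, was in 26.5% of the members' windows and in 11.2% of all 32851 windows. At least 1 of the KLF letter strings CCACACCC, CCGCACCC, CCCCACCC and CCCCGCCC (8 letters, both strands, overlaps with the GC-rich Sp1 motif possible) was in 44.1% of the members' windows and in 28% of all. The stretches of 100 bases shown next hold the GATA motif (capitals; TTATCT where it lies on the other strand). They were chosen to set side by side genes with the motif that were listed at 0 in ESAM-null (Epb4.2, Trim10), higher in ESAM-null (Icam4), or within 2-fold (Rhd, Kel, Tmcc2). All lie before a RefSeq start site and are written 5′ to 3′ on the gene's strand. GENCODE places the starts of Epb4.2, Kel and Icam4 somewhat further upstream, so that those stretches overlap its first exons, and the Tmcc2 start is an internal one within the gene.
Epb4.2 (chr2:121037028-121037127, minus strand): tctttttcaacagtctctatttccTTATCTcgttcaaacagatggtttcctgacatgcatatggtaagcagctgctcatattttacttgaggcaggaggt
Trim10 (chr17:36869364-36869463, plus strand): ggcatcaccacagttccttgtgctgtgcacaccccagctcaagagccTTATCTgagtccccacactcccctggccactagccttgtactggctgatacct
Icam4 (chr9:21029332-21029431, plus strand): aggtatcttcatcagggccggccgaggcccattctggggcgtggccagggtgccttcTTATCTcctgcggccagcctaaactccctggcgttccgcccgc
Rhd (chr4:134864436-134864535, plus strand): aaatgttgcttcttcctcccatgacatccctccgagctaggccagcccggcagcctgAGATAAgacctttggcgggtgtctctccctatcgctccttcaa
Kel (chr6:41704329-41704428, minus strand): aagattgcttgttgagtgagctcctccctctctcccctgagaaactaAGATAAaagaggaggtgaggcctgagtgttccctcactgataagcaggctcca
Tmcc2 (chr1:132367949-132368048, minus strand): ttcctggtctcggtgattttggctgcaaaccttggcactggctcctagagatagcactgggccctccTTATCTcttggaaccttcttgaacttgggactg
A motif match is a description of the letters and not of binding. Members with the GATA motif were found on both sides of the 2-fold limits, since 2 of the 7 lower members with a window had it (Epb4.2 and Trim10), 1 of the 4 higher (Icam4) and 4 of the 10 within 2-fold (Hemgn, Kel, Rhd and Tmcc2). The KLF strings were found with 4 lower members (Add3, Aqp1, Tmod1 and Xk), 1 higher member (Add2) and 6 members within 2-fold (Add1, Blvrb, Bpgm, Cd59a, Epb4.1 and Tmcc2). Sphk1, under 1 FPKM in both libraries, had both.

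Of the 26 members at 1 FPKM or more in a library, 8 were lower in ESAM-null by 2-fold or more, 5 were higher by 2-fold or more and 13 were within 2-fold. The lower members were Slc4a1, Epb4.2, Add3, Tmod1, Xk, Aqp1, Mfsd2b and Trim10, and the higher ones were Add2, Ermap, Icam4, Cldn13 and Tspo2. These are 30.8% and 19.2% of the members, against 12.8% and 7.42% of all genes. The members' median log2 ratio was -0.18. Of the members past 2-fold 61.5% were lower, beside 63.2% of all genes past 2-fold. A split in both directions was thus not particular to the members. The adducins Add2 and Add3 lay on opposite sides. The filter itself bears on these counts: 18 members reached 1 FPKM in both libraries, while 6 of the 8 lower members (Slc4a1, Epb4.2, Tmod1, Aqp1, Mfsd2b and Trim10) passed through WT alone and 2 of the 5 higher members (Add2 and Ermap) through ESAM-null alone.

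**Figure D1:**
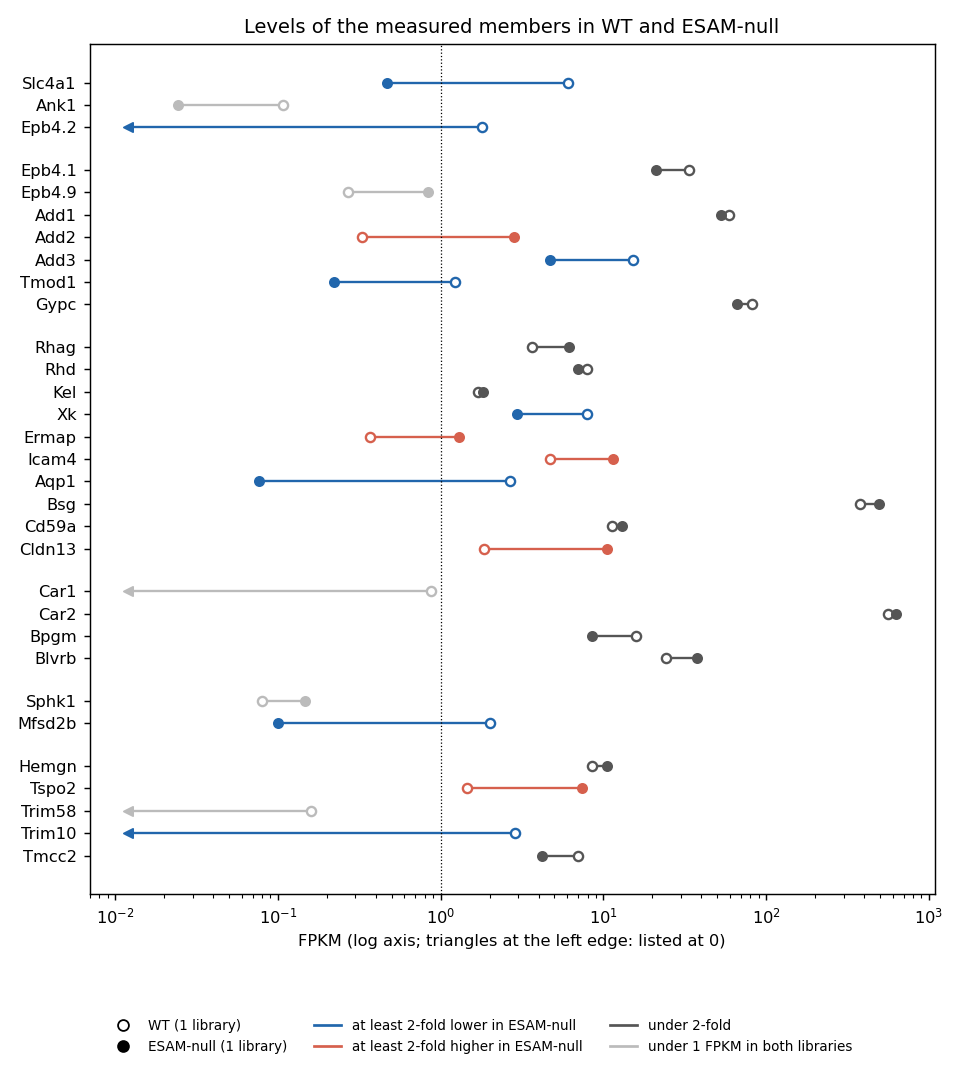
Levels of the 31 members with a row, in FPKM on a log axis, with open points for the WT library and filled points for the ESAM-null library, grouped by role from band 3 at the top to maturation factors at the bottom. Epb4.2, Car1, Trim58 and Trim10 are listed at 0 in ESAM-null (triangles), and the dotted line marks 1 FPKM.

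The share of genes past 2-fold varied with the level of a gene in the library where it was higher. Among all genes at 1 to 3 FPKM by that measure, 34.5% were lower and 21% higher, and of the 8 members in this range 5 were lower and 2 higher. At 3 to 10 FPKM the shares of all genes were 19% and 10.5%, and 2 of 6 members were lower and 1 higher. At 10 to 30 FPKM they were 8.5% and 3.95%, and 1 of 6 members was lower (Add3) and 2 were higher (Icam4 and Cldn13). At 30 to 100 FPKM (1.5% and 1.73% of all genes) and above (1.91% and 1.77%) none of the 6 members passed 2-fold. Applied to the members' own levels, these shares would give 4.51 lower and 2.65 higher members, beside the 8 and 5 counted.

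**Figure D2:**
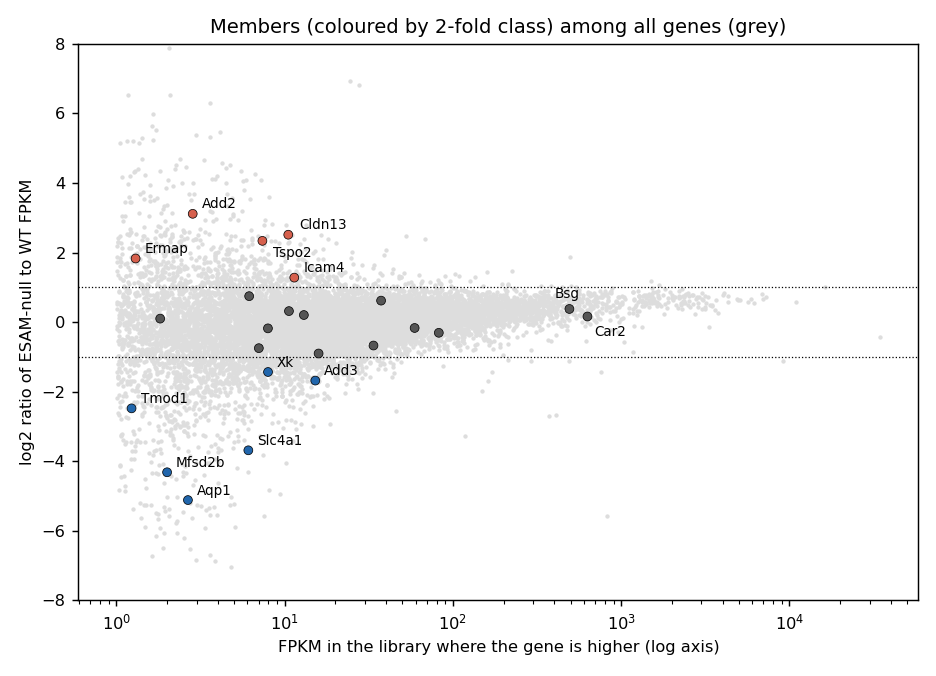
The log2 of the ESAM-null level over the WT level against the FPKM of the library where the gene was higher (log axis), with all genes above 0 in both libraries in grey and the members coloured blue (at least 2-fold lower), red (at least 2-fold higher) or dark grey (within 2-fold, dotted lines). Members past 2-fold sit at 1.23 to 15.2 FPKM, where the grey cloud is also wide, and Bsg and Car2, at the right, lie near 0.

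Of band 3 and its attachment proteins, both genes at 1 FPKM or more in a library were lower in ESAM-null, by more than 10-fold. Both passed that filter through WT alone. Of all genes at the level of Slc4a1 (3 to 10 FPKM), 19% were lower by 2-fold or more. At the level of Epb4.2 (1 to 3 FPKM) the share was 34.5%. Slc4a1 (band 3, chr11:102348824-102366203, minus strand) was listed at 6.08 FPKM in WT and 0.471 in ESAM-null, about 247 and 21 reads. That is 12.9-fold lower, with a 95% counting interval of 8.22 to 21.1-fold. Epb4.2 (protein 4.2, which binds band 3 and ankyrin, chr2:121017891-121037072, minus strand) was listed at 1.79 FPKM in WT, about 65 reads, and at 0 in ESAM-null. With the WT reads taken as they stand, a floor of 3 reads makes it at least 23.7-fold lower, and the counting interval, which also covers the error of the WT reads, begins at 18.7-fold. Ank1 (erythroid ankyrin) was near the detection limit in both libraries, with 0.107 and 0.0245 FPKM or about 7 and 2 reads, and the interval of its ratio, 0.0265 to 1.37, held 1. Ankyrin, which joins band 3 to the skeleton, could thus not be compared at this depth. Intervals here and in what follows are exact intervals for approximate read numbers. They cover counting error only, since amplified reads without molecular identifiers are not independent molecules, and do not cover the spread between fetuses or libraries.

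Of the 6 skeleton genes at 1 FPKM or more, 2 were lower (Add3 and Tmod1), 1 was higher (Add2) and 3 were within 2-fold. Epb4.1 (protein 4.1) was listed at 33.7 FPKM in WT and 21.1 in ESAM-null, 1.59-fold lower with an interval of 1.47 to 1.73. Gypc (glycophorin C, its membrane partner) stood at 82.4 and 66.5 FPKM, 1.24-fold lower. Add1 (alpha adducin, found in most cells) stood at 59.2 and 52.6 FPKM, 1.13-fold lower. These 3 genes, the abundant ones of the group, were all slightly lower in ESAM-null.

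Add3 (gamma adducin, the partner of alpha adducin in cells outside the red cell lineage, chr19:53140443-53247399) was listed at 15.2 FPKM in WT and 4.73 in ESAM-null, about 583 and 198 reads, 3.21-fold lower with an interval of 2.73 to 3.8. Add2 (beta adducin, the partner in red cells, chr6:86028681-86124409) went the other way, with 0.328 FPKM in WT and 2.84 in ESAM-null, about 10 and 91 reads, 8.68-fold higher with an interval of 4.33 to 18. Added over the 3 genes, adducin stood at 74.8 FPKM in WT and 60.2 in ESAM-null. Within that sum Add3 took 20.4% in WT and 7.87% in ESAM-null, Add2 took 0.438% and 4.73%, and Add1 took 79.2% and 87.4%. The red cell beta form was thus a small part of adducin in both libraries and a larger one in ESAM-null.

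Tmod1 (tropomodulin 1, which caps the pointed ends of the junctional actin filaments, chr4:46038935-46116032) was listed at 1.23 FPKM in WT and 0.22 in ESAM-null, about 34 and 7 reads, 5.62-fold lower with an interval of 2.31 to 14.2. Of its 3946 exonic bases, 1287 are shared with Tstd2 on the other strand (16.9 and 16.1 FPKM), and the library kit does not mark strand, so reads of that stretch cannot be told apart. Epb4.9 (dematin, an actin bundling protein) was under 1 FPKM in both libraries, with 0.27 and 0.841 FPKM or about 6 and 21 reads, 3.11-fold higher in ESAM-null with an interval of 1.25 to 9.71. Spnb1 (beta spectrin) was lower still, at 0.0728 FPKM in WT and 0.277 in ESAM-null, about 7 and 29 reads, 3.81-fold higher with an interval of 1.63 to 10.3. Spna1, its alpha spectrin partner, stood at 0.155 and 0.63 FPKM, 4.06-fold higher with an interval of 2.13 to 8.32. Both erythroid spectrin chains were thus under 1 FPKM in both libraries and higher in ESAM-null, while band 3 and protein 4.2 were lower.

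Among the 10 surface proteins, 2 were at least 2-fold lower, 3 were at least 2-fold higher and 5 were within 2-fold. Aqp1 (the water channel that carries the Colton blood group, chr6:55336432-55348555) was listed at 2.66 FPKM in WT and 0.0764 in ESAM-null, about 60 and 2 reads. Its fold of 34.8 lower rests on those 2 reads, with an interval of 8.68 to 277. Xk (the membrane protein bound to Kell, chrX:9272756-9313250) was listed at 7.96 and 2.94 FPKM, about 363 and 146 reads, 2.7-fold lower with an interval of 2.23 to 3.31. Its partner Kel (an endopeptidase that carries the Kell blood group) stood at 1.7 and 1.82 FPKM, a ratio of 1.07 with an interval of 0.67 to 1.7 that held 1. Of the disulfide-linked pair, XK was thus lower and Kell within 2-fold.

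Cldn13 (a claudin expressed in mouse erythroblasts, chr5:134914249-134915526, minus strand) was listed at 1.84 FPKM in WT and 10.5 in ESAM-null, about 15 and 93 reads, 5.7-fold higher with an interval of 3.27 to 10.6. Icam4 (the Landsteiner-Wiener adhesion protein, chr9:21029373-21030595) stood at 4.7 and 11.4 FPKM, about 35 and 93 reads, 2.43-fold higher with an interval of 1.63 to 3.7. All 1110 of its exonic bases are shared with the antisense gene Gm47079, so its reads and those of that gene cannot be told apart. Ermap (the Scianna blood group protein, chr4:119175457-119190011, minus strand) stood at 0.366 and 1.3 FPKM, about 15 and 58 reads, 3.55-fold higher with an interval of 1.98 to 6.73. For Icam4 and Ermap the interval reached below 2-fold.

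The other surface genes were within 2-fold. Rhag and Rhd encode the Rh-associated glycoprotein, which is needed for the Rh complex to reach the membrane, and the Rh protein. Rhag was listed at 3.67 and 6.15 FPKM, 1.67-fold higher in ESAM-null with an interval of 1.25 to 2.27. Rhd stood at 7.95 and 7.01 FPKM, a ratio of 0.882 whose interval of 0.655 to 1.18 held 1. Cd59a, an inhibitor of complement lysis, stood at 11.3 and 13 FPKM with an interval of the ratio from 0.933 to 1.42, and its duplicated relative Cd59b was listed at 1.98 and 1.99 FPKM, a split that depends on how any shared reads were assigned. Bsg (basigin, the Ok blood group protein and a partner of lactate transporters) was one of the most abundant members, with 379 and 492 FPKM, 1.3-fold higher with an interval of 1.25 to 1.35.

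**Figure D3:**
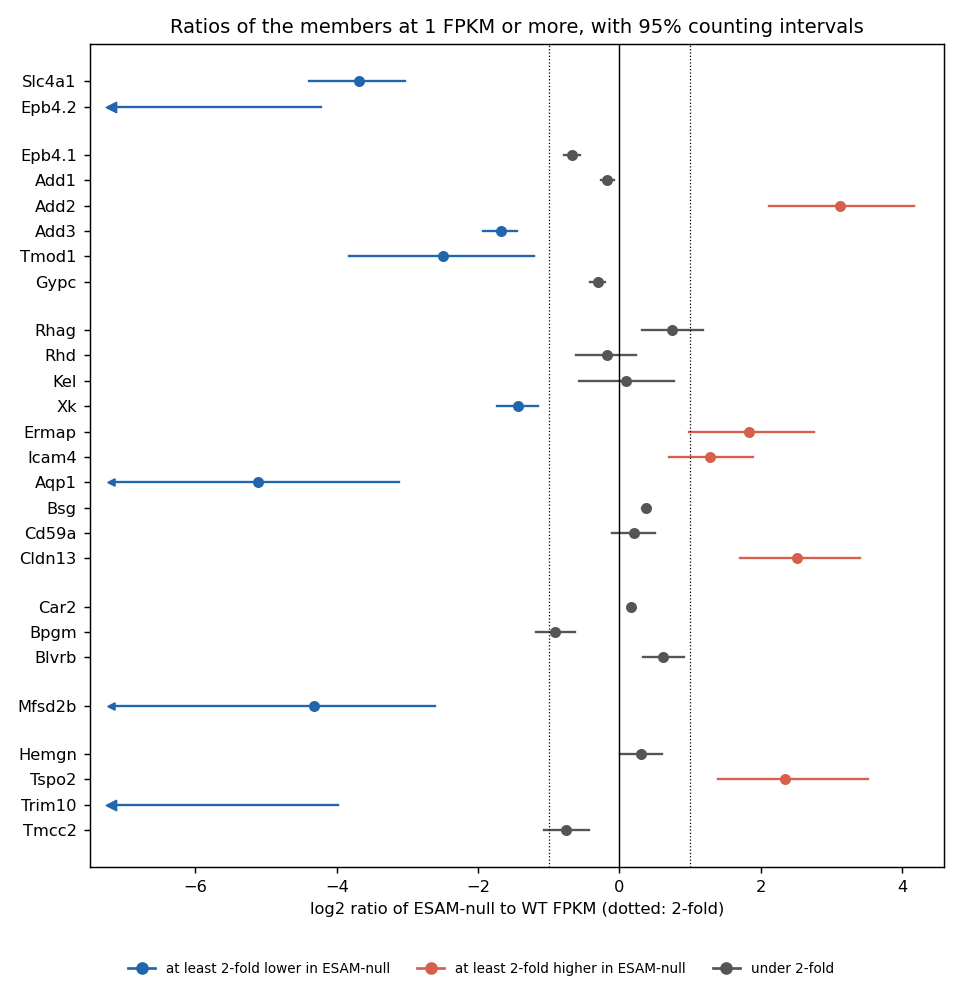
The log2 of the ESAM-null level over the WT level for the 26 members at 1 FPKM or more in a library (points), with 95% counting intervals (lines) and 2-fold marked by dotted lines. Epb4.2 and Trim10, listed at 0 in ESAM-null, are drawn as arrows from the upper end of the interval, the lower ends for Aqp1 and Mfsd2b run off the axis, and the intervals of all 8 lower members lie beyond 2-fold.

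Of the red cell enzymes, none of the 3 above 1 FPKM passed 2-fold. Car2 (carbonic anhydrase 2, found in many tissues) was the most abundant member, with 564 FPKM in WT and 630 in ESAM-null, 1.12-fold higher as deposited but lower after each library was rescaled to the same total (log2 ratio -0.12). Car2 and Bsg together made up 75.5% of the members' summed FPKM in WT and 80.5% in ESAM-null, so the sum over the members (1248 and 1395 FPKM) describes these genes and not the rest. Car1, the carbonic anhydrase of mature red cells, was listed at 0.869 FPKM in WT, about 8 reads, and at 0 in ESAM-null, at least 2.91-fold lower against the floor, with a counting interval that begins at 1.86-fold, under 2-fold. Bpgm (bisphosphoglycerate mutase, which makes the 2,3-bisphosphoglycerate that lowers the oxygen affinity of hemoglobin) stood at 15.9 and 8.49 FPKM, 1.87-fold lower with an interval of 1.55 to 2.27. Blvrb (biliverdin reductase B, a flavin reductase abundant in red cells) stood at 24.4 and 37.4 FPKM, 1.53-fold higher with an interval of 1.26 to 1.88.

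Red cells supply plasma with sphingosine-1-phosphate, made by a sphingosine kinase and released by the transporter Mfsd2b. Mfsd2b (chr12:4862440-4874359, minus strand) was listed at 2 FPKM in WT and 0.1 in ESAM-null, about 43 and 2 reads. The fold of 19.9 lower has an interval of 6.12 to 200. Sphk1 was at 0.0797 and 0.147 FPKM, about 1 and 2 reads, under the floor in both libraries, and no fold is given. The transporter was thus lower and its kinase could not be compared. Spns2, the transporter that other cells use for the same lipid, stood at 108 and 87.7 FPKM, and Sphk2 at 12 and 9.19 FPKM.

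The maturation factors were also split. Trim10 (an erythroid tripartite motif protein, chr17:36869574-36877833) was listed at 2.86 FPKM in WT, about 55 reads, and at 0 in ESAM-null, at least 20-fold lower against the floor, with a counting interval that begins at 15.7-fold. Trim58 (a ubiquitin ligase of late erythroblasts that acts in enucleation) was at 0.16 FPKM in WT, about 3 reads, and at 0 in ESAM-null, and no fold is given. Tspo2 (an erythroid transporter of the translocator protein family, chr17:48447907-48451522, minus strand) stood at 1.46 and 7.37 FPKM, about 10 and 57 reads, 5.06-fold higher with an interval of 2.64 to 11.5.

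Hemgn (hemogen, a nuclear protein of hematopoietic cells) stood at 8.52 and 10.6 FPKM, 1.24-fold higher with an interval of 1.01 to 1.52. Tmcc2 (a coiled-coil protein of the endoplasmic reticulum) stood at 7.02 and 4.17 FPKM, 1.68-fold lower with an interval of 1.35 to 2.1. Both were within 2-fold. Of the 13 members within 2-fold, the counting interval lay below a ratio of 1 for 5, above it for 5 and held 1 for 3 (Rhd, Kel and Cd59a).

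Transcript length moved with the direction. The 8 lower members had transcripts of 2245 to 5076 bases (median 3636), the 5 higher members 956 to 4551 bases (median 1067) and the 13 within 2-fold 905 to 5141 bases (median 2220). Over all genes the same tendency was seen, with a median log2 ratio of 0.46 under 1000 bases, 0.17 from 1000 to 2000, -0.03 from 2000 to 4000 and -0.24 from 4000 bases. Under 1000 bases 14.7% of all genes were at least 2-fold higher and 12.3% lower, while from 4000 bases 4.73% were higher and 16.5% lower. Add2 and Ermap, at 3336 and 4551 bases, were higher against that tendency. The part of transcript length in the members' ratios was not tested beyond centring each ratio on its length class, after which 8 members were lower and 4 higher. Icam4 was the member no longer past 2-fold, with a log2 ratio of 0.82.

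**Figure D4:**
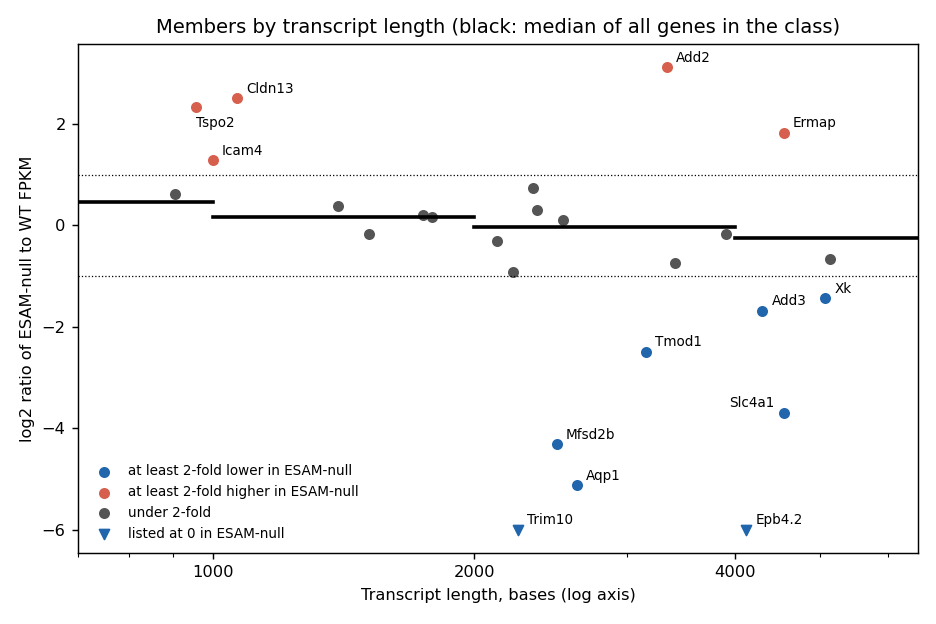
The log2 of the ESAM-null level over the WT level against transcript length (log axis) for the 26 members, coloured by 2-fold class, with black lines for the median of all genes in each of 4 length classes. Tspo2, Icam4 and Cldn13 are higher and about 1000 bases long, the lower members are all above 2000 bases, and Trim10 and Epb4.2 (triangles, listed at 0 in ESAM-null) are drawn at the foot of the plot.

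Other genes of the red cell membrane, outside the list, were mostly within 2-fold. Of 28 at 1 FPKM or more, 2 were lower, 2 higher and 24 within 2-fold, with a median log2 ratio of 0.01. Most of the 28 stood above 10 FPKM in a library, where fewer of all genes passed 2-fold. They were not matched to the members for level. The lower genes were Slc14a1 (the urea transporter that carries the Kidd blood group), at 6.33 and 1.92 FPKM, and Abcb10 (a mitochondrial transporter of erythroid cells), at 7.16 and 2.81 FPKM. The higher genes were Aqp3 (a water and glycerol channel), at 0.477 and 1.88 FPKM, and Tmem56, listed at 0 in WT and 2.22 FPKM in ESAM-null.

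Relatives of the members that serve other cells were mostly within 2-fold, 23 of 27, with a median of 0.01. The lower ones were Epb4.1l3 (a protein 4.1 relative), at 4.12 and 0.406 FPKM, Slc4a7 (a bicarbonate cotransporter of the band 3 family), at 5.25 and 0.855 FPKM, and Car5b (a mitochondrial carbonic anhydrase), at 1.44 and 0.271 FPKM. Car13 was higher, at 0.355 and 1.12 FPKM. Tmod3, the tropomodulin found in most cells, stood at 40.2 and 49.6 FPKM beside the 5.62-fold lower level of Tmod1.

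Among 35 other terminal erythroid genes, 6 were lower, 1 higher and 28 within 2-fold, with a median of -0.11. Alas2 (the erythroid enzyme that starts heme synthesis) was listed at 8.08 and 0.282 FPKM, 28.6-fold lower, and Hba-a2 (alpha globin) at 373 and 57.1 FPKM, 6.53-fold lower, although reads of the alpha globin copies can be split between them. The adult beta globins Hbb-b1 (78.8 and 114 FPKM) and Hbb-b2 (855 and 730 FPKM) were within 2-fold. No interval is given for them, and their split depends on how any shared reads were assigned. The study reported lower Hbb-b1 by qPCR in such cells. It also reported lower embryonic Hbb-y and Hbb-bh1 in its sequencing data, which were not examined here. Alox15, a lipoxygenase of maturing reticulocytes, was listed at 2.07 FPKM in WT and at 0 in ESAM-null. Dyrk3, an erythroid kinase, was the 1 higher gene, at 7.39 and 14.8 FPKM.

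Among 18 regulators of the lineage, none was lower and 1 was higher, with a median of -0.15. This was Klf1 (the erythroid Krüppel-like factor), at 4.16 FPKM in WT and 20.3 in ESAM-null, 4.88-fold higher with an interval of 3.59 to 6.65. Gata1 stood at 4.64 and 6.95 FPKM, 1.5-fold higher with an interval of 1.11 to 2.03. Also within 2-fold, Epor was 1.96-fold higher, while Zbtb7a was 1.94-fold and Stat5a 1.85-fold lower.

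**Figure D5:**
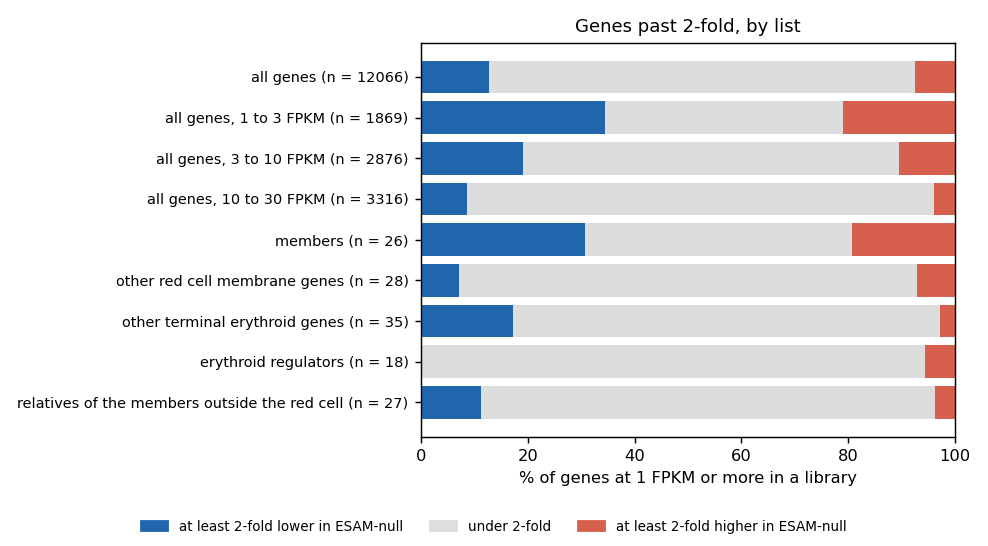
Share of genes at 1 FPKM or more in a library with an ESAM-null level lower by 2-fold or more (blue, from the left) or higher by 2-fold or more (red, at the right), in % of each list, with the number of genes beside its name. The members have 30.8% lower and 19.2% higher, all genes at 1 to 3 FPKM 34.5% and 21%, and the 28 other red cell membrane genes 7.14% each. The lists differ in level and were not matched for it.

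In bulk RNA, fewer cells of a type and less RNA per cell cannot be told apart, so markers of other cell types are set beside the members, including mature types that the lineage-negative gate is meant to remove. The 8 markers of red cells and late erythroblasts, which include Slc4a1, summed to 1325 FPKM in WT and 905 in ESAM-null, with 3 of 6 at 1 FPKM or more lower and none at 0. The 6 erythroid progenitor markers summed to 39.4 and 60.1 FPKM. Macrophages of the fetal liver take up erythroblast nuclei and fragments. Their 12 markers with a row summed to 36 and 43.7 FPKM. Of these, 7 (Emr1, C1qa, Vcam1, Cd5l, Marco, Mertk and Timd4) were at 0 in ESAM-null, against 2 at 0 in WT (Mertk and Timd4). Hmox1 (5.81 and 13.2 FPKM), Csf1r (2.17 and 3.59), Cd68 (14.2 and 20) and C1qc (3.38 and 5.07) were listed higher in ESAM-null. C1qb (3.85 and 1.94) was listed lower. In WT, Emr1, C1qa, Vcam1, Cd5l and Marco had about 17 to 24 reads each. Of all 23284 genes, 8979 were at 0 in WT and 10245 in ESAM-null, and 8581 of these were at 0 in both libraries. The 10 hepatocyte markers summed to 42.4 and 37.1 FPKM, with 7 at 0 in ESAM-null and 1 in WT. Those 7 had about 18 reads or fewer each in WT. Trf made up most of the sum (32.5 and 22.8 FPKM), while Apoa1 (1.09 and 7.52) and Afp (4.35 and 6.69) were higher in ESAM-null. Megakaryocyte markers summed to 93 and 105 FPKM and endothelial markers to 130 and 133. Granulocyte and mast cell markers summed to 255 and 263, and B cell markers to 86.4 and 104. Single markers moved within these sums. Of those at 1 FPKM or more in a library, Itga2b (5.05 and 2.23 FPKM) was at least 2-fold lower. Ppbp (1.46 and 3.69), Cdh5 (0.954 and 3.33) and Cpa3 (1.11 and 3.83) were at least 2-fold higher, and the others were within 2-fold. The part of other cells in the members' levels was not tested.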

How the data were processed

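Single-end reads of 75 bases from SMART-Seq v4 libraries (2 in all, 1 per genotype) were made into gene values by the authors. The submitters' processing notes name the mm10 genome, the quantifier Cuffnorm 2.2.1, the aligners Bowtie2 2.2.3 and TopHat2 2.0.13, and SAMtools 0.1.19. The sources used here do not give the gene annotation, the normalization setting or the treatment of shared reads. The deposited unit is FPKM, with no counts.

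Everything else was computed here in Python 3.11.15 with pandas 2.3.3, numpy 2.4.6 and scipy 1.17.1 and drawn with matplotlib 3.10.9. A gene was counted where it reached 1 FPKM in at least 1 library, and as lower or higher where ESAM-null divided by WT passed 2-fold, with no pseudocount. Medians rank a gene at 0 in 1 library beyond all others. The value of 1 read was found from the spacing of low FPKM values, given effective transcript lengths from GENCODE M21 (fragments of 200 bases on average, SD 80). Of low genes, 63.7% of 827 in WT and 69.2% of 533 in ESAM-null came within 0.05 of a whole number. These approximate reads gave exact (Clopper-Pearson) 95% intervals and a floor of 3 reads per library. They are estimates, so no count model was run. The FPKM total was 751784 in WT and 911736 in ESAM-null. The calculation was checked on simulated data.

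Gene positions are from GENCODE M21 (GRCm38) and promoter sequences from RefSeq (GRCm38.p6), with no window for Ank1, Bsg, Car1, Car2, Cldn13, Epb4.9, Gypc and Slc4a1. All members are named. From the other lists the text names up to 4 genes with the largest ratios, those at 0 in 1 library, Klf1 and Gata1. Others (Car5b, Tmod3, Spns2, Sphk2, Cd59b, Hbb-b1, Hbb-b2, Spna1, Cd68 and C1qc) were chosen with their values in view. The members and all lists were chosen with earlier results of these data known. 1 gene of these lists is not reported here.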

Additional observations from a re-analysis of the deposited data

How the results depend on the processing

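With a filter of 5 FPKM in at least 1 library, 3 members were lower and 3 higher (6.99% and 3.75% of all genes), with a median log2 ratio of 0.00, and with 1 FPKM required in both libraries 2 were lower and 3 higher (7.13% and 4.09% of all genes), with a median of 0.13; the 18 members left in each case are fewer by construction. Rescaling each library to a total of 1000000 shifted all genes by -0.28 (log2) and gave 11 lower and 5 higher of 27 members (19.5% and 5.47% of all genes) and a median of -0.46. Lower genes then made up 78.1% of all genes past 2-fold (63.2% as deposited) and 68.8% of such members (61.5% as deposited). Bpgm (-1.18) and Tmcc2 (-1.03) passed 2-fold under this scaling. Car2 (-0.12), Kel (-0.18) and Cd59a (-0.08), slightly higher as deposited, were then slightly lower. With a pseudocount of 1 FPKM, Tmod1 (-0.87) and Ermap (0.75) no longer passed. Slc4a1 (-2.27, from -3.69), Aqp1 (-1.76, from -5.12), Mfsd2b (-1.45, from -4.32) and Add2 (1.53, from 3.12) came nearer to 0 and still passed. Centring on transcript length classes, chosen after seeing the data, left 4 higher members. No member past 2-fold changed direction, but these runs could not have shown such a change. A pseudocount keeps the sign of a ratio, and the shifts from scaling and length centring were smaller than 2-fold. Under 2 other choices of transcript length for the reads, 31 of 31 intervals lay as before relative to 1 (below, above or holding it). Such a choice changes the reads of a gene by the same factor in both libraries. The ratio was thus fixed and only the width of the interval could change. No paired analysis was possible because each genotype had 1 library. Leaving out a replicate was not possible for the same reason. Among members past 2-fold and above 0, depth limits Aqp1 and Mfsd2b most, with 2 reads each in ESAM-null.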
